A study of Homo sapiens with 6 samples.

Results

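The genes described here encode the histone lysine methyltransferases and demethylases other than LSD1 and its relative KDM1B, with the core subunits of the methyltransferase complexes. They were chosen by name from a list of 47 symbols. Of these, 44 had a row among the 15585 genes of the deposited count table, SETD8 and SUV420H1 being older names of the listed KMT5A and KMT5B, and EHMT2 was not analysed here. All 44 passed the filter on low counts, with 193 to 5308 reads in any library. RNA was measured in U2OS cells, a human osteosarcoma cell line, 48 h after siRNA transfection. There were 3 libraries from cells given control siRNA (siCTR) and 3 from cells given LSD1 siRNA (siLSD1), both labelled with replicate numbers 1 to 3, and which LSD1 siRNA was used is not given in the sources used here. The labels do not say whether replicates came from separate cultures, so p-values measure only the spread between these libraries, which may be technical.

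Lysines in the tails and the globular part of histones H3 and H4 carry methyl groups that are placed by methyltransferases, most of them with a SET domain, and removed by demethylases. LSD1, encoded by KDM1A, is an FAD-dependent demethylase of mono- and dimethylated H3K4, whereas the demethylases of the present list belong to the iron-dependent JmjC family. Methylation of H3K4, H3K36 and H3K79 marks transcribed or regulatory chromatin, methylation of H3K9 and H3K27 marks silenced chromatin, and methylation of H4K20 is tied to the cell cycle and chromatin compaction.

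The libraries held 12513511 to 13561344 counted reads, and KDM1A was at 18.5% of the control level in siLSD1, which checks the labels. Of the mesenchymal and bone markers, VIM had at least 9487 and ALPL at least 4162 reads in every library, COL1A1 had 122 to 200, and RUNX2, which defines bone-forming cells, and the matrix protein SPARC had at most 4 and 3. The blood marker PTPRC had at most 1 read in any library. Of the 5 epithelial markers CDH1 (66 to 154 reads) was higher in every siLSD1 library, EPCAM (28 to 41) overlapped, and KRT5, KRT14 and KRT19 had at most 5 reads. Of the 3 endothelial markers VWF (63 to 161) and CDH5 (4 to 28) were higher in every siLSD1 library and PECAM1 had 3 reads or fewer. VWF had a log2 fold change of 0.88 with an adjusted p of 0.0418 in edgeR (Benjamini-Hochberg). CDH5 was at 1.62 (adjusted p 0.0830 in edgeR), CDH1 at 0.77 (adjusted p 0.0699 in edgeR) and EPCAM at −0.06. The values of VWF, CDH5 and CDH1 were larger than that of any member. The part of these markers in the results below was not tested. In this bulk RNA a lower level of a gene per cell and fewer cells with that gene cannot be told apart. Of 10 proliferation genes, such as MKI67 and PCNA, 0 passed the adjusted threshold in edgeR, 0 had an unadjusted p under 0.05 (0 also passed with DESeq2), and their median log2 fold change was 0.06.

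RNA levels of the enzymes that write and erase histone lysine methylation were compared between siLSD1 and siCTR cells. None of the 44 members passed an adjusted p under 0.05 in edgeR's quasi-likelihood test, in either direction. Among all 11844 genes tested, 1.07% were higher in siLSD1 and 0.371% were lower at this threshold. At an unadjusted p under 0.05, 2 members were higher, SETD7 and KDM2A, and 2 were lower, KDM5B and EED. Each count is 4.55% of the members, below the 7.48% of all tested genes that were higher and the 6.55% that were lower. DESeq2 called 1 member at an adjusted p under 0.05, which was SETD7, and 2.73% of all tested genes, and limma-voom called 0 members and 1.34% of all tested genes. The log2 fold changes of the members lay between −0.38 for DPY30 and 0.47 for SETD7. Their 95% confidence intervals reached a median of 0.30 to either side, and 30 of the 44 intervals lay within −0.5 and 0.5.

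The median log2 fold change of the members was 0.08, against −0.01 over all genes tested, with 27 positive and 17 negative values. It was −0.03 without siCTR replicate 2, and then 19 members were positive and 25 negative. Without that library the values of 27 members changed sign or shrank by more than 1.5 times, and 19 changed sign with some single library left out. In 7 members every siLSD1 library lay above every siCTR library, which is 15.9% of the members against 11.4% of all tested genes. These were SETD7, RBBP5, KDM5A, SETDB1, KDM4A, KDM2A and KDM2B. In 6 members every siLSD1 library lay below every siCTR library, which is 13.6% against 9.97%, and these were ASH2L, KDM5B, KDM4C, EED, SMYD2 and KMT5A. Neither share was tested against that of all genes.

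**Figure D1:**
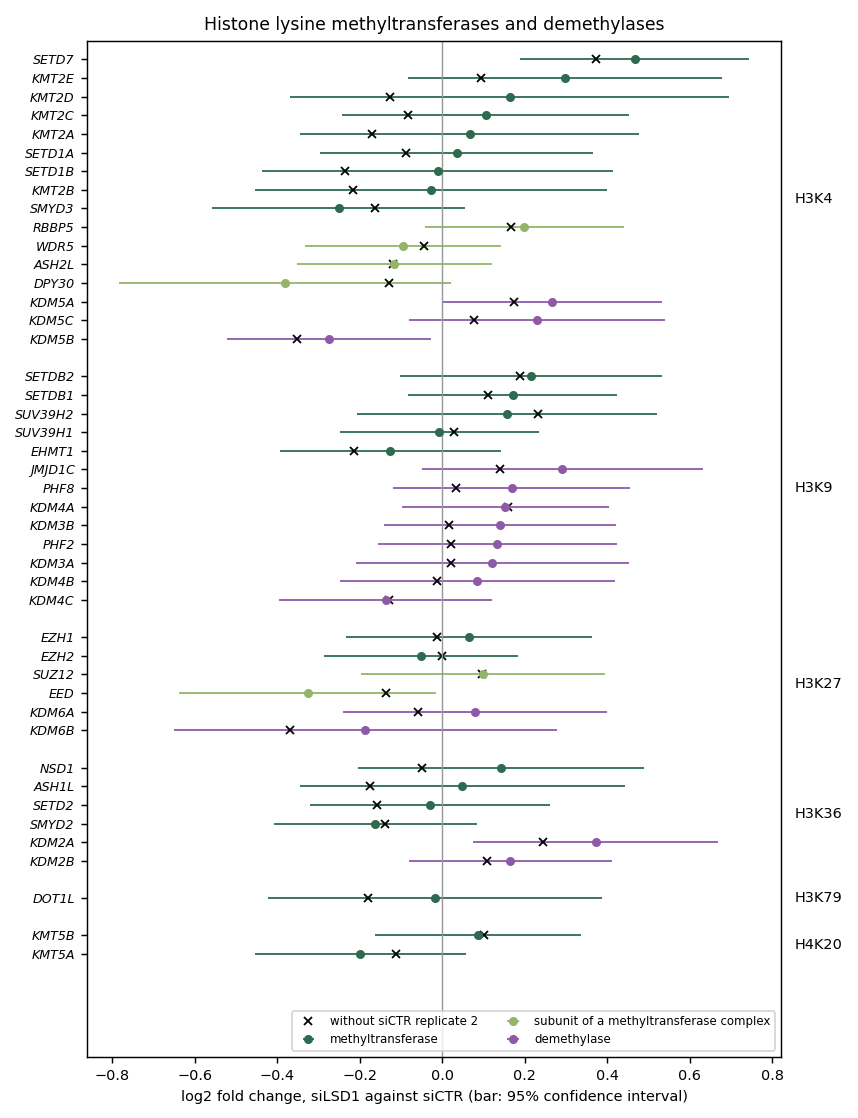
Log2 fold change of each of the 44 members in siLSD1 against siCTR, grouped by the lysine it acts on and coloured by role, with the 95% confidence interval of edgeR's fit as a bar and the value without siCTR replicate 2 as a cross. SETD7 and KDM2A lie right of 0 and KDM5B and EED lie left of 0 with their whole interval, and most crosses lie left of their points.

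The control libraries did not agree on the members. After scaling, siCTR replicate 2 held the lowest value of all 6 libraries for 26 of the 44 members and the lowest of the 3 controls for 30, which is 68.2% of the members against 37.9% of all genes tested. The departure of this library from the mean of all 6 followed transcript length, taken from the canonical GENCODE transcript. Over the 44 members Pearson's r with log2 length was −0.90 and Spearman's rho was −0.88, where the points share 1 library, and rho over all tested genes was −0.51. KMT2D, which methylates H3K4 at enhancers and has the longest transcript of the list (20.6 kb), was at 45.0% of the mean of the other controls in this library. DPY30, a small subunit of the H3K4 methyltransferase complexes with the shortest transcript (0.688 kb), was at 157%. The members were long as a group, with a median of 5.76 kb against 3.37 kb for the tested genes, and 34 of them were above the latter.

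Several libraries also differed by base composition. In siLSD1 replicate 3 the members' departure from the mean had a Pearson's r of −0.78 with GC content, and in siCTR replicate 1 and siLSD1 replicate 1 it was 0.67 in each. These are descriptions over 44 genes that share their libraries. Over all tested genes Spearman's rho of this departure with GC content was −0.59 in siLSD1 replicate 3. It was 0.42 in siCTR replicate 1 and 0.57 in siLSD1 replicate 1. Across the members the log2 fold change had a Spearman's rho with length of 0.40, and of −0.11 without siCTR replicate 2. What made these libraries differ was not tested. When trends in length and GC content were added to the fit, the members with an adjusted p under 0.05 were SETD7 and KDM2A, both higher, and KDM5B, which was lower. These are 4.55% of the members against 5.09% of all tested genes for higher levels, and 2.27% against 3.52% for lower levels.

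**Figure D2:**
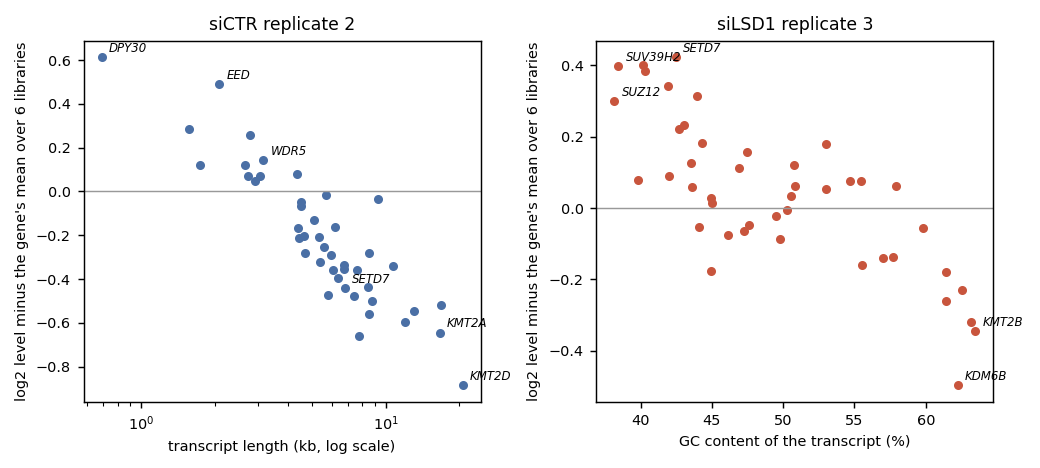
Left, log2 level in siCTR replicate 2 minus the mean of the same gene over 6 libraries, against transcript length in kb on a log axis. Right, the same difference for siLSD1 replicate 3 against the GC content of the transcript in percent, each point being 1 of 44 members. The longest transcript, KMT2D, is lowest on the left, and the members over 60% GC lie below 0 on the right.

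Among the H3K4 methyltransferases, SETD7 had the smallest p of all members. SETD7 adds a single methyl group to H3K4 and also methylates many non-histone proteins. Its gene lies on chromosome 4 from 139495941 to 139606699 (− strand, GRCh38). In CPM, the read count relative to the library size as scaled by edgeR's TMM method, SETD7 was at 109, 90.2 and 115 in siCTR replicates 1, 2 and 3, and at 132, 138 and 164 in the siLSD1 libraries. Every siLSD1 library was above every control. The means were 105 ± 12.9 CPM in siCTR and 145 ± 17.1 CPM in siLSD1 (SD, n = 3), and the log2 fold change was 0.47 (SE 0.13, the standard error of the fit). Its p was 0.00314, and the adjusted p was 0.110 in edgeR (Benjamini-Hochberg). With 1 library left out the log2 fold change ranged from 0.37 to 0.54. The adjusted p was 0.0423 in DESeq2 with Benjamini-Hochberg adjustment and 0.00491 in edgeR with the length and GC trends, and over all alternatives it ranged from 0.00169 to 0.295. The call of SETD7 depended on the method while its direction did not.

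The other H3K4 methyltransferases gave values around 0. The log2 fold changes ran from −0.25 for SMYD3, a SET and MYND domain protein with substrates in the cytoplasm, to 0.30 for KMT2E, a relative of the MLL proteins with a divergent SET domain. For KMT2E the levels were 96.1, 59.7 and 103 CPM in siCTR and 101, 98.6 and 120 CPM in siLSD1. The control range of KMT2E was wider than the distance between the groups, its value was 0.0940 without siCTR replicate 2, and its adjusted p was 0.474 in edgeR (Benjamini-Hochberg). KMT2D was at 409, 159 and 298 CPM in siCTR and at 370, 317 and 283 CPM in siLSD1. The siLSD1 libraries of KMT2D fell inside the control range, and its log2 fold change of 0.16 became −0.13 without siCTR replicate 2. KMT2A, the MLL protein of promoters, was at 277, 147 and 265 CPM in siCTR and at 251, 220 and 249 CPM in siLSD1, again inside the control range, and its value of 0.07 became −0.17 without that library. KMT2B, SETD1A and SETD1B, which methylate H3K4 at promoters, and KMT2C, the paralogue of KMT2D, had log2 fold changes between −0.03 and 0.11.

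The 4 shared core subunits WDR5, RBBP5, ASH2L and DPY30 are needed for the activity of the MLL and SETD1 enzymes, and they did not move in 1 direction. RBBP5 was the positive one, at 51.2, 49.3 and 54.6 CPM in siCTR and 58.9, 61.5 and 57.6 CPM in siLSD1. The groups of RBBP5 did not overlap, yet its log2 fold change of 0.20 had an adjusted p of 0.451 in edgeR (Benjamini-Hochberg). DPY30 had the most negative value of all members, −0.38 (SE 0.19), and −0.13 without siCTR replicate 2. It was at 38.4, 64.0 and 43.4 CPM in siCTR and at 32.4, 34.9 and 44.5 CPM in siLSD1. The groups of DPY30 overlapped, and the high control was siCTR replicate 2, the library in which short transcripts were high. ASH2L and WDR5 had log2 fold changes of −0.12 and −0.10.

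The KDM5 demethylases remove methyl groups from di- and trimethylated H3K4, and the log2 fold changes of the paralogues KDM5A and KDM5B had opposite signs, though neither passed the adjusted threshold in the fit without trends. KDM5B (chromosome 1, 202724495 to 202808487, − strand, GRCh38) was at 186, 151 and 173 CPM in siCTR and at 136, 137 and 149 CPM in siLSD1. All siLSD1 libraries were below all controls, although siCTR replicate 2 and siLSD1 replicate 3 lay close together. The log2 fold change of KDM5B was −0.27 (SE 0.11), p was 0.0315, and the adjusted p was 0.295 in edgeR (Benjamini-Hochberg). With the length and GC trends it was −0.37 with an adjusted p of 0.00506 in edgeR (Benjamini-Hochberg). The adjusted p ranged from 0.00311 to 0.692 over all alternatives in edgeR, DESeq2 and limma, and the log2 fold change from −0.35 to −0.21 with 1 library left out.

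KDM5A (chromosome 12, 280057 to 389320, − strand, GRCh38), which was singled out after its values were seen, was at 64.5, 53.0 and 66.8 CPM in siCTR and at 69.7, 73.6 and 78.4 CPM in siLSD1. All siLSD1 libraries were above all controls. Its log2 fold change was 0.27 (SE 0.12), and with 1 library left out it ranged from 0.17, without siCTR replicate 2, to 0.33. Its p was 0.0508, and the adjusted p was 0.357 in edgeR (Benjamini-Hochberg), which was 0.541 without siCTR replicate 2. KDM5C, the most abundant of the 3 and likewise named after its values were seen, was at 315, 206 and 280 CPM in siCTR and at 335, 304 and 299 CPM in siLSD1. The groups of KDM5C overlapped, and its log2 fold change of 0.23 was 0.08 without siCTR replicate 2.

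The ratio of 2 paralogues is taken inside each library, so that scaling cancels, whereas a bias by length or GC cancels only where the transcripts are alike. Over the 13 pairs the length ratio ran from 0.694 for KDM3A to KDM3B to 1.96 for KMT2A to KMT2B. The log2 ratio of KDM5A to KDM5B reads was −1.52, −1.51 and −1.38 in siCTR replicates 1, 2 and 3, and −0.96, −0.90 and −0.92 in siLSD1. Both groups were tight, and the distance between them was several times their spread, with siCTR replicate 2 in the middle of the controls. The mean ratio went from −1.47 ± 0.08 to −0.93 ± 0.03 (SD, n = 3), a difference of 0.54 on the log2 scale or 1.46-fold. In FPKM, the authors' measure of reads scaled to gene length and library size, KDM5A stood at 0.471 of KDM5B in siCTR and at 0.685 in siLSD1. The transcripts are 10.7 and 9.29 kb long with 42.7% and 44.1% GC. A two-sided exact permutation test gave p = 0.1, which is the smallest that 3 against 3 libraries allow and cannot reach 0.05, and the adjusted value over 13 pairs was 0.433 with Benjamini-Hochberg adjustment. The difference ranged from 0.51 to 0.59 with 1 library left out and was 0.55 in the second set of counts that the authors deposited for the same libraries.

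Of the 13 paralogue pairs, 2 others had no overlap between the groups, which makes 23.1% of the pairs. Of all single genes tested, 21.4% had no overlap. That share is of scaled levels and not of ratios, and no share over other gene pairs was computed. KDM4A and KDM4C remove methyl groups from trimethylated H3K9 and H3K36, and their log2 ratio was −0.03, −0.08 and −0.12 in siCTR and 0.25, 0.13 and 0.27 in siLSD1. The difference was 0.29 (two-sided exact permutation p = 0.1, adjusted 0.433), with 0.26 to 0.33 when 1 library was left out. Of the transcript of KDM4A, 56.4% overlaps exons of other annotated genes, so its count is uncertain. The same holds to a lesser degree for SUV39H1 (25.0%), KMT2A (23.1%), SETDB1 (18.5%), KDM2B (12.6%), DOT1L (11.7%) and EED (10.6%). Most of the overlap of KDM4A and KMT2A is with genes on the same strand, that of the other 5 is with genes on the opposite strand, and the counting is not stated to use strand. For KDM2A to KDM2B the ratio was 0.71, 0.43 and 0.63 in siCTR and 0.89, 0.72 and 0.80 in siLSD1. The transcript of KDM2A is 1.39 times as long as that of KDM2B. That gap was narrow, with a difference of 0.21 that fell to 0.13 without siCTR replicate 2 (two-sided exact permutation p = 0.1, and 0.2 in the second counts). In the remaining 10 pairs the groups overlapped, and the differences lay between −0.14 for SUV39H1 to SUV39H2 and 0.26 for KDM6A to KDM6B. Of these differences 9 changed sign when 1 library was left out, and without siLSD1 replicate 3 that of SUV39H1 to SUV39H2 was 0.0911 and that of KDM6A to KDM6B −0.0389.

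**Figure D3:**
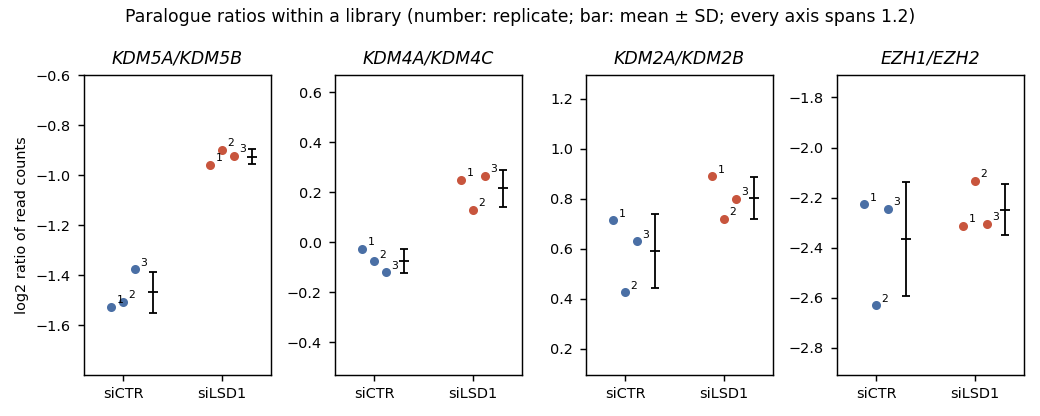
Log2 ratio of the read counts of 2 paralogues in each library, with siCTR in blue and siLSD1 in red, the replicate number beside each point and the mean ± SD (n = 3) as a bar; every axis spans the same range. The groups of KDM5A/KDM5B are 0.54 apart, those of KDM4A/KDM4C 0.29 and those of KDM2A/KDM2B 0.21, and the groups of EZH1/EZH2 overlap.

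The H3K9 group held 5 methyltransferases and 8 demethylases, and 10 of the 13 values were positive with a median of 0.14, which was 0.03 without siCTR replicate 2. SETDB2, a SET domain protein related to the H3K9 methyltransferase SETDB1, had the smallest p of the writers. It was at 23.9, 23.2 and 25.6 CPM in siCTR and at 24.3, 26.2 and 33.9 CPM in siLSD1, a log2 fold change of 0.22. Its highest library was siLSD1 replicate 3, and the value was 0.06 without it. SETDB1, SUV39H1, SUV39H2, which place the trimethyl mark of heterochromatin, and EHMT1, which mono- and dimethylates H3K9, had log2 fold changes of 0.17, −0.01, 0.16 and −0.13. JMJD1C, a relative of the KDM3 demethylases, had the smallest p among the H3K9 demethylases, at 117, 82.8 and 122 CPM in siCTR and 114, 125 and 155 CPM in siLSD1. The groups of JMJD1C overlapped, and its log2 fold change of 0.29 was 0.14 without siCTR replicate 2. KDM3A and KDM3B, which act on mono- and dimethylated H3K9, KDM4A and KDM4B, which act on trimethylated H3K9, and the PHD finger proteins PHF2 and PHF8 had log2 fold changes from 0.09 to 0.17. Their paralogue KDM4C was at −0.14.

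Polycomb repressive complex 2 methylates H3K27 through EZH1 or EZH2, with EED and SUZ12 as core subunits, and KDM6A and KDM6B remove the mark. EED, which binds trimethylated H3K27 and stimulates the enzyme, lies on chromosome 11 from 86201212 to 86278813 (+ strand, GRCh38). It was at 68.2, 95.1 and 66.0 CPM in siCTR and at 59.3, 63.6 and 60.1 CPM in siLSD1. Every siLSD1 library was below every control, and siCTR replicate 2 stood above the other 2 controls. The transcript of EED is 2.09 kb long. The log2 fold change of EED was −0.33 (SE 0.14), p was 0.0414, and the adjusted p was 0.325 in edgeR (Benjamini-Hochberg). Without siCTR replicate 2 the log2 fold change was −0.14. With the length and GC trends and the replicate number in the fit, the adjusted p was 0.0316 in edgeR (Benjamini-Hochberg). Over all alternatives in edgeR, DESeq2 and limma the adjusted p ranged from 0.0316 to 0.632.

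EZH2, the enzyme that dominates in dividing cells, was at 157, 167 and 147 CPM in siCTR and at 140, 157 and 157 CPM in siLSD1, with overlapping groups and a log2 fold change of −0.05 (95% confidence interval −0.29 to 0.18). EZH1 was at 33.5, 27.02 and 31.0 CPM in siCTR and 28.2, 35.9 and 31.8 CPM in siLSD1, and SUZ12 at 149, 157 and 167 CPM and at 136, 171 and 200 CPM. Neither separated the groups, with log2 fold changes of 0.07 and 0.10. KDM6B was at 35.3, 19.5 and 25.7 CPM in siCTR and at 26.5, 26.9 and 17.4 CPM in siLSD1. The groups of KDM6B overlapped, its transcript has 62.2% GC, and its log2 fold change was −0.19. That value was 0.0599 without siCTR replicate 1, −0.37 without siCTR replicate 2 and −0.0072 without siLSD1 replicate 3. KDM6A, also named UTX, had 61.0, 43.4 and 59.6 CPM in siCTR and 54.4, 53.4 and 65.5 CPM in siLSD1, a value of 0.08 that was −0.06 without siCTR replicate 2.

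Among the H3K36 enzymes KDM2A had the smallest p. It removes methyl groups from mono- and dimethylated H3K36 and binds unmethylated CpG DNA through a zinc finger. Its gene lies on chromosome 11 from 67119263 to 67258082 (+ strand, GRCh38). KDM2A was at 108, 80.04 and 108 CPM in siCTR and at 142, 115 and 126 CPM in siLSD1. Every siLSD1 library was above every control, by a narrow margin for siLSD1 replicate 2. The means were 98.6 ± 16.1 and 128 ± 13.3 CPM (SD, n = 3), the log2 fold change was 0.37 (SE 0.14), p was 0.0180, and the adjusted p was 0.237 in edgeR (Benjamini-Hochberg). With the length and GC trends it was 0.29 with an adjusted p of 0.0411 in edgeR (Benjamini-Hochberg), where all alternatives in edgeR, DESeq2 and limma ranged from 0.0125 to 0.410, and it was 0.24 without siCTR replicate 2. KDM2B, its paralogue, was at 65.7, 59.6 and 69.7 CPM in siCTR and 76.3, 69.8 and 72.4 CPM in siLSD1, so the groups did not overlap but nearly touched, with a log2 fold change of 0.16.

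None of the 4 H3K36 methyltransferases had an unadjusted p under 0.05 in edgeR. SMYD2, which methylates H3K36 and p53, was at 46.4, 50.5 and 50.4 CPM in siCTR and at 41.9, 45.3 and 44.3 CPM in siLSD1. All siLSD1 libraries of SMYD2 were lower, with a log2 fold change of −0.16 and an adjusted p of 0.547 in edgeR (Benjamini-Hochberg). SETD2, which places the trimethyl mark on transcribed genes, and NSD1 and ASH1L, which dimethylate H3K36, had log2 fold changes of −0.03, 0.14 and 0.05. DOT1L, the H3K79 methyltransferase without a SET domain, was at 192, 111 and 137 CPM in siCTR and at 169, 151 and 115 CPM in siLSD1. Its groups overlapped, and the log2 fold change was −0.02 (95% confidence interval −0.42 to 0.39).

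For H4K20, KMT5A adds the first methyl group and KMT5B the next. KMT5A was at 60.9, 74.5 and 65.3 CPM in siCTR and at 56.1, 60.1 and 58.7 CPM in siLSD1. The groups did not overlap, by less than 1 CPM, and the log2 fold change was −0.20, which was −0.11 without siCTR replicate 2, with an adjusted p of 0.480 in edgeR (Benjamini-Hochberg). KMT5B was at 44.3, 47.7 and 48.6 CPM in siCTR and 51.9, 46.5 and 50.9 CPM in siLSD1, with overlap and a value of 0.09. KMT5A has 3 named pseudogenes, and KMT2C, ASH2L, KDM3A, PHF2, EZH2, EED and SUZ12 have at least 1, so their counts are uncertain where reads map to both.

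**Figure D4:**
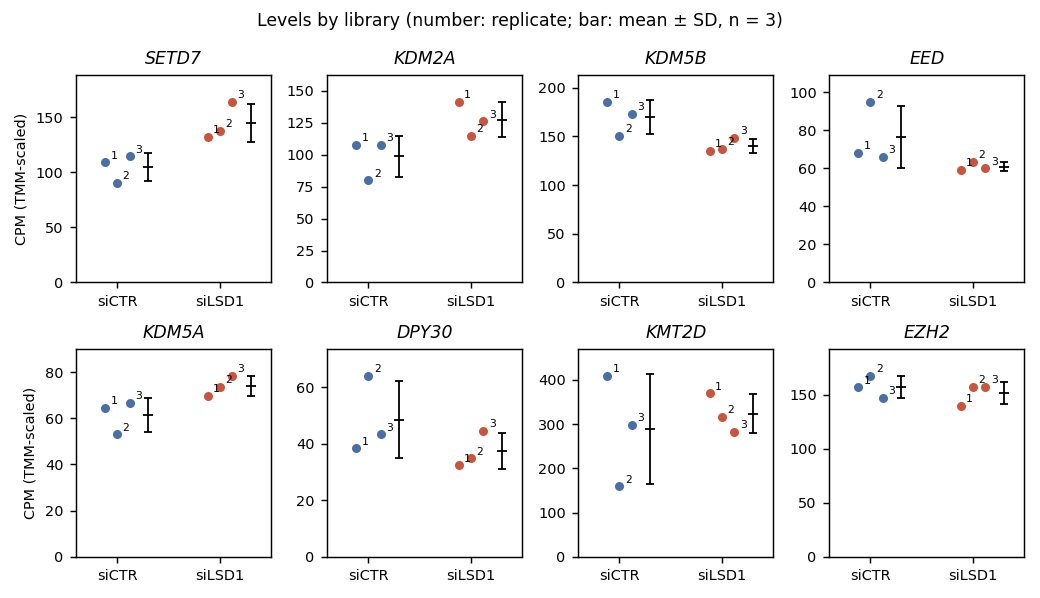
TMM-scaled CPM of 8 members in each library, with siCTR in blue and siLSD1 in red, the replicate number beside each point and the mean ± SD (n = 3) as a bar; each vertical axis starts at 0. SETD7, KDM2A and KDM5A are higher and KDM5B and EED lower in all siLSD1 libraries, whereas siCTR replicate 2 is the lowest control of KMT2D and the highest of DPY30 and EED.

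By role, 12 of the 15 demethylases had a positive log2 fold change, with a median of 0.14, and 15 of the 29 methyltransferases and subunits did, with a median of 0.03. Without siCTR replicate 2 these medians were 0.02 and −0.09. The difference between the roles was not tested. By residue the medians were 0.05 for the 16 H3K4 members, 0.14 for H3K9, 0.01 for the 6 H3K27 members, 0.10 for the 6 H3K36 members, −0.02 for DOT1L and −0.06 for H4K20. Without siCTR replicate 2 the medians were −0.10 for H3K4, −0.0352 for H3K27, −0.0941 for H3K36, −0.18 for DOT1L and −0.00513 for H4K20. The H3K4 median was 0.21 without siCTR replicate 1 and −0.0258 without siLSD1 replicate 1, the H3K36 median was 0.0434 without siLSD1 replicate 3, and the H3K27 median lay between −0.0449 and 0.0612 with 1 library left out. The H3K4, H3K27 and H3K36 medians thus moved by more than their own size when a single library was left out.

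Levels per transcript length, in FPKM, spanned a wide range in siCTR. The most abundant were subunits and Polycomb genes, with WDR5 at 70.9 ± 4.70, DPY30 at 57.1 ± 15.3 and EZH2 at 51.2 ± 2.99 FPKM (SD, n = 3). WDR5 was above EZH2 by more than both SDs, and DPY30 did not differ from either beyond its spread. KDM5C at 38.9 ± 8.47 FPKM was the most abundant demethylase, and SETDB2, KDM6B and KDM4C were lowest at 3.85 ± 0.22, 4.004 ± 1.24 and 4.34 ± 0.17 FPKM. SETDB2 and KDM6B did not differ beyond their spread. Within the paralogue pairs EZH1 was at 0.128 of EZH2, and SUV39H1 at 3.38 of SUV39H2. The summed FPKM of the H3K4 methyltransferases was 1.996, 1.71 and 1.90 times that of the KDM5 genes in siCTR and 1.88, 1.83 and 1.77 times in siLSD1. The siLSD1 values fell within the control range, whose lowest value was that of siCTR replicate 2. Every siLSD1 value lay below the other controls, by a narrow margin for siLSD1 replicate 1.

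**Figure D5:**
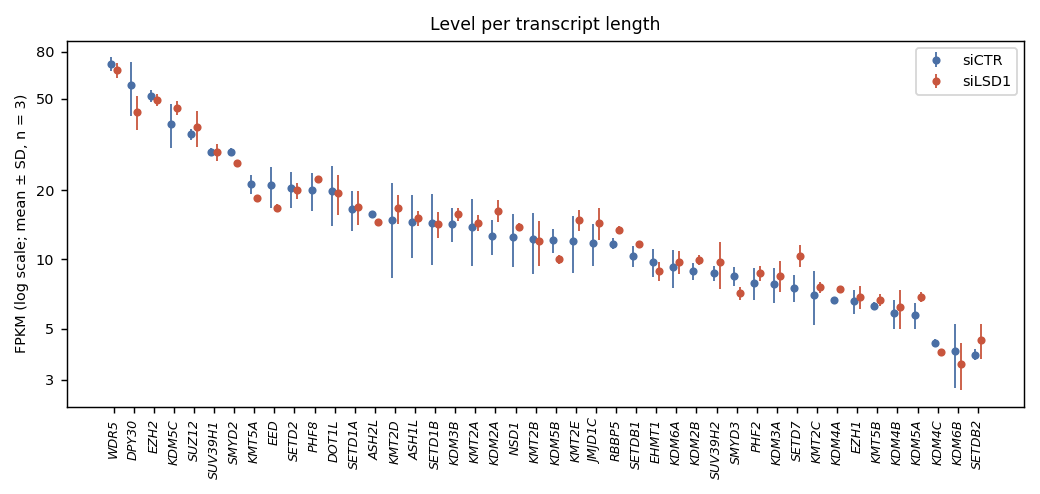
Mean FPKM ± SD (n = 3) of each member in siCTR (blue) and siLSD1 (red) on a log axis, ordered by the siCTR mean. WDR5 is highest at 70.9 FPKM and SETDB2 lowest at 3.85 FPKM, and SETD7 lies above its control level by more than both SDs.

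The regions before the transcription start of the 4 members with an unadjusted p under 0.05, and of KDM5A as the paralogue of one, are printed because these members carry the values above. They are the 250 bases before the start from RefSeq (GRCh38.p14), written 5′ to 3′ on the strand of the gene, with CpG dinucleotides in capitals because KDM2A, KDM2B, KMT2A and KMT2B carry a zinc finger that binds unmethylated CpG DNA. The windows lie at chr4:139556220-139556469 (−) for SETD7, chr11:67119013-67119262 (+) for KDM2A, chr1:202808422-202808671 (−) for KDM5B, chr12:389321-389570 (−) for KDM5A and chr11:86244503-86244752 (+) for EED. The RefSeq starts of SETD7 and EED lie inside the GENCODE genes as located above, which begin further upstream, so these windows are upstream of the RefSeq transcript and not of the whole gene. That of KDM5B lies slightly inside the gene end given above.
SETD7: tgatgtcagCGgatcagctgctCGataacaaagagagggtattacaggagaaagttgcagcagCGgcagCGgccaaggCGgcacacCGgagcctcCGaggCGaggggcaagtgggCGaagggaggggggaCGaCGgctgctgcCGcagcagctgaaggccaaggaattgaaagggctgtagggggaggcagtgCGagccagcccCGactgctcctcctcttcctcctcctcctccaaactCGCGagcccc
KDM2A: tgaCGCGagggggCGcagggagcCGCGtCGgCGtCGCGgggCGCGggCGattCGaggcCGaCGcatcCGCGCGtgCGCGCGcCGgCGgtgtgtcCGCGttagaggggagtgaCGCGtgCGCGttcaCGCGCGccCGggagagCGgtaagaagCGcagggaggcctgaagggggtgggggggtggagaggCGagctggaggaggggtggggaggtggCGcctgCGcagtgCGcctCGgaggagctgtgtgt
KDM5B: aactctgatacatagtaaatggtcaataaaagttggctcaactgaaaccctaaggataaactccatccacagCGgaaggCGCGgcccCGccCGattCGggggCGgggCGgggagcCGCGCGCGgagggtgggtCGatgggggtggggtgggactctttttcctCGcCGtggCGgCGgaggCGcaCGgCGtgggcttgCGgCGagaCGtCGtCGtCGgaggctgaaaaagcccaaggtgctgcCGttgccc
KDM5A: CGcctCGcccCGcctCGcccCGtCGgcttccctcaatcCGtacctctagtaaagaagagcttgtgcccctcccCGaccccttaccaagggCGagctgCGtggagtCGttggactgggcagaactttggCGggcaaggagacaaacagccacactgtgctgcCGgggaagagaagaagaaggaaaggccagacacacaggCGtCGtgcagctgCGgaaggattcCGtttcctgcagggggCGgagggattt
EED: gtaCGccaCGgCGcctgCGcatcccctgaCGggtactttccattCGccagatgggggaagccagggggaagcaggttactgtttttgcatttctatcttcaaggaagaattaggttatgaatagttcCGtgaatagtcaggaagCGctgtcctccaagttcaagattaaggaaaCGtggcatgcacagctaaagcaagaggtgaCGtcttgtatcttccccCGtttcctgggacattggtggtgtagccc
KDM2A held 40 CpG dinucleotides, KDM5B 27, KDM5A 18, SETD7 16 and EED 11. The median was 23 over the 40 members with a window and 21 over 9582 tested genes, so the 4 members did not lie on 1 side of it. In the longer windows that also hold 50 bases after the start, 5 motifs were searched on both strands. CCAAT was in EED and in 32.5% of members against 37.0% of tested genes, and the YY1 word ATGGCGGC was in KDM2A and in 12.5% against 6.46%. The E2F words TTTCCCGC, TTTGGCGC, TTTGCCGC and TTTCGCGC were in EZH1, EZH2 and SUZ12, which is 7.5% of members against 5.5%. The CRE word TGACGTCA was in 2.5% against 3.39% and the E-box CACGTG in 15.0% against 10.1%, and neither was in the windows printed here. A match is a description of letters and not a binding site. ASH2L, SETD1B, DPY30 and DOT1L had no window in the table.

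Genes that work with these enzymes were taken as a separate list, written from general knowledge. Of its 41 tested genes, 0 passed the adjusted threshold in edgeR without the trends, limma-voom or DESeq2, 2 were higher at an unadjusted p under 0.05, where 7.48% of all tested genes were, 0 were lower, against 6.55%, and the median log2 fold change was 0.01, and −0.06 without siCTR replicate 2. CBX5, which encodes heterochromatin protein 1 alpha, a reader of methylated H3K9, had counts of 4487, 3868 and 4499 in the controls, and of 5306, 4973 and 5492 after knockdown. Every siLSD1 library of CBX5 was higher, with a log2 fold change of 0.29 and an adjusted p of 0.226 in edgeR (Benjamini-Hochberg). In edgeR the adjusted p of CBX5 was 0.0497 with the length and GC trends and the replicate block, and 0.0284 with the trends and siCTR replicate 2 left out, and over all alternatives in edgeR, DESeq2 and limma it ranged from 0.0284 to 0.599. JARID2, which recruits Polycomb repressive complex 2, had counts of 365, 267 and 389 in the controls, and of 428, 408 and 444 after knockdown. JARID2 was also higher in every siLSD1 library, with a log2 fold change of 0.33, which was 0.19 without siCTR replicate 2, and an adjusted p of 0.324 in edgeR (Benjamini-Hochberg). The other partners, such as MEN1, HCFC1, TRIM28, RBBP4 and RBBP7, were between −0.23 and 0.26 on the log2 scale.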

How the data were processed

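RNA-seq libraries of U2OS cells, 3 siCTR and 3 siLSD1, were grouped by their labels. Alignment by the authors used STAR. The authors deposited raw read counts per gene, which were not normalized, and FPKM values for 6 libraries in 1 table. The genome build, annotation and counter are not given in the sources used here. The authors' tables of pairs of libraries hold a second set of read counts, whose counting step is not stated, and their own fold changes and p-values were not used.

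Counts were tested in R 4.3.3 with edgeR 4.0.16 (all 6 libraries, no covariates, TMM scaling, quasi-likelihood test, low counts removed by filterByExpr with 10 as the minimum), with Benjamini-Hochberg adjustment over 11844 of 15585 genes. Paralogue ratios used counts plus 0.5 and SciPy 1.17.1. Transcript length, GC content and gene coordinates came from GENCODE release 44 on GRCh38 (14963 genes matched by symbol and 389 through an older one). The length and GC trends were lowess fits (span 0.3) to each library's log-CPM, added to the offsets. Replicates varied with a biological coefficient of 12.6%. Counts of any 2 libraries differed beyond sampling noise (chi-square per degree of freedom 6.45 to 39.3), and each library was used as 1 sample. The fit was tested on simulated data for 11759 genes, 197 of them changed by 1 on the log2 scale, where 172 (87.3%) were recovered with 8 false calls among 180.

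Values per library were given for each member with an unadjusted p under 0.05 and for the member with the smallest p in each residue and role group without one. KDM5A, KDM5C, KMT2D, KMT2A, KMT2E, EZH1, KDM6A and all further members with such values were named after their values were seen. The members, gene lists and tests were chosen with earlier results of these data known. The alternatives were DESeq2 1.42.0, limma-voom (limma 3.58.1), library size only, no filter, at least 1 CPM in 3 libraries, a replicate block, the trends with and without it, the second counts and leaving out each library. The trends with siCTR replicate 2 left out were added after seeing the data.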

Additional observations from a re-analysis of the deposited data

How the results depend on the processing

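The count of members with an adjusted p under 0.05 was 0 with limma-voom, library size only, both other filters, the second counts and each library left out. It was 1 with DESeq2 (SETD7), 2 with a replicate block (SETD7 and KDM2A), 3 with the length and GC trends (SETD7, KDM2A and KDM5B), 4 with these trends and the replicate block (with EED), and 2 with the trends and siCTR replicate 2 left out (SETD7 and KDM5B). Of all tested genes these fits called 2.73%, 7.57%, 8.61%, 13.0% and 9.41% in that order, against 1.44% in the fit reported above. With the trends and the replicate block, SETD3 and CBX5 among the partners and E2F1 among the proliferation genes also passed. At an unadjusted p under 0.05 the members higher in siLSD1 were 7 with the replicate block, 5 with the trends and 6 with both, where 10.3%, 12.7% and 14.5% of all tested genes were higher. The lower members were 1 with limma-voom and with the second counts, 6 with the trends, 6 with the trends and the replicate block, and 8 with the trends and siCTR replicate 2 left out, where 6.6%, 6.66%, 12.1%, 14.3% and 11.8% of all tested genes were lower. With 1 library left out these counts ranged from 2 to 5 higher and from 0 to 2 lower, where 5.07% to 7.72% of all tested genes were higher and 3.79% to 7.43% were lower. The direction of SETD7, KDM2A, KDM5B, EED and KDM5A was the same in every fit. Without 1 library EZH2 ranged from −0.10 to 0.000866 on the log2 scale, KDM6B from −0.37 to 0.0599, DOT1L from −0.18 to 0.22, KMT2D from −0.13 to 0.50, KMT2A from −0.17 to 0.22, EZH1 from −0.0175 to 0.15 and KDM6A from −0.0585 to 0.16. With the trends DOT1L was 0.0293 and KMT2A −0.0323. With the trends and the replicate block they were 0.0372 and −0.0213, and EZH1 was −0.00188. With limma-voom DOT1L was 0.000688. With the trends and siCTR replicate 2 left out KMT2D was −0.0181, KMT2A −0.16, EZH1 −0.0373 and KDM6A −0.0707. The number of paralogue ratios at the smallest exact p was 3, and 2 in the second counts. The cause of these changes was not tested.

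Same-numbered siCTR and siLSD1 libraries had correlations of 0.33, 0.07 and 0.31 between their deviations, not all above 0.1, and the labels do not say that a number marks a shared culture or day, so the block was kept as an alternative. All 6 libraries correlated best with their own number and the authors' tables of pairs set same-numbered libraries side by side, which is a hint of pairing and not part of the labelled design. The intervals allow changes of about 0.30 on the log2 scale in a typical member, and the EHMT1 to EHMT2 ratio was not computed.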
